A study of Mus musculus with 38 samples.

Results

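Ppard knockout organoids (D) and wild-type organoids (WT), both grown with the agonist GW501516 (GW), were compared across all genes of a count table. The knockout libraries were the 3 columns named for GW in D without a further suffix, and the wild-type libraries were the 5 columns named for GW in WT, so 8 of the series' 38 samples entered the comparison. The material was intestinal stem cell organoids from C57BL6 mice, grown from crypts in 65% matrigel for 8 days over 2 passages. The GW groups received 1 uM GW501516 in 0.1% DMSO and the vehicle groups 0.1% DMSO. The D genotype is written in the labels as Ppard-fl/fl, with no recombinase named, and the WT genotype as Wildtype. The same genotypes in vehicle (5 libraries of D, 5 of WT) were set beside the GW comparison, and libraries of Ppara-null mice (A) and of Ppard-fl/fl; Ppara-null mice (DA) were used for a few values. One more sample, titled as GW in D, carries the DA genotype label and was not assigned to a group. The column names do not show which of the columns for GW in D is its own, and the 3 D columns used here may include it.

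Ppard encodes PPARδ, a nuclear receptor that binds fatty acids and, with an RXR partner, activates genes for the transport, activation and oxidation of fatty acids. GW501516 is a synthetic agonist of PPARδ. Ppara encodes PPARα, a related receptor with overlapping target genes in the intestinal epithelium, so the comparison asks which transcripts differ when the agonist is present and its named receptor gene is targeted.

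RNA was read by 3′ digital gene expression, which counts tags from transcript ends. The GW libraries held 354801 to 467666 counts in D and 405302 to 506644 in WT, and mitochondrially encoded transcripts took 8.24% to 10.2% and 8.55% to 10.6% of them. All 8 epithelial markers, among them Epcam, Cdh1 and Vil1, were counted in every GW library, at 8.08 to 868 counts per 1000000 counts of the library (CPM). The 10 tuft cell markers summed to 2 counts in D and 4 in WT, and the 15 immune markers to 7 and 11 counts. Of the 14 stromal and endothelial markers, 12 had no count in D and 12 none in WT. Their summed level was 23.5 to 30.5 CPM in D and 15.7 to 30.3 CPM in WT. Pecam1 alone held 34 of these 35 counts in D and 54 of the 55 in WT. Xist exceeded the Y-linked transcripts in 2 of 3 D libraries and 2 of 5 WT libraries. The column names carry serial numbers, which no label names as a batch; they were split at 37 for a check, with 2 D and 3 WT libraries in columns 1 to 36 and 1 D and 2 WT libraries in columns 37 to 60. All 3 GW libraries of columns 37 to 60 had Y-linked counts above Xist.

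Few transcripts separated the genotypes under GW. Of 4902 genes tested, 3 passed (0.0612%), that is, had a Benjamini-Hochberg adjusted p under 0.05 in the quasi-likelihood test of edgeR. Both genes that rose, Gm28438 and H2-Bl (0.0408%), also rose in D in vehicle, where they were the only 2 genes to pass (0.0408%) in that fit, and 1 gene fell under GW (0.0204%). Against the same 5 WT libraries under GW, 9 genes passed in A (0.184%) and 41 in DA (0.836%), which had 5 libraries each where D had 3. Of the 41 in DA, 12 were higher (0.245%) and 29 lower (0.592%). At an unadjusted p under 0.05 there were 170 genes (3.47%) under GW, and also 170 in vehicle. The median log2 fold change over all genes tested was -0.000289 under GW, with a median standard error of 0.317.

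The receptor transcripts came first as a check of the labels. Ppard (ENSMUSG00000002250, mm10 chromosome 17, 28232700 to 28301474) had 0, 0 and 1 counts in the D libraries under GW, against 1, 2, 1, 2 and 1 counts in the WT libraries. In vehicle it had 1, 1, 1, 2 and 0 counts in D, against 1, 0, 1, 0 and 2 in WT. The groups overlapped and the gene was too scarce to be tested. The labels do not say which exons are floxed, and a 3′ tag outside the deleted part does not report on it, so the deletion was not checked by these counts. Ppara, the related fatty acid receptor, had 28.3, 12.8 and 2.82 CPM in D under GW, against 22.2, 11.2, 4.71, 22.2 and 21.7 CPM in WT, with a log2 fold change of -0.04 ± 0.51 (SE). This value covers 0.70 within columns 1 to 36 and -2.87 within columns 37 to 60, where the only D library had 1 count. Pparg, the family member best known from fat cells, had 21.8, 23.5 and 22.6 CPM in D and 28.3, 15.7, 25.9, 19.7 and 25.7 CPM in WT, a log2 fold change of 0.02 ± 0.35. Rxra, one of the RXR partners, had no count in the 3 D libraries, against 3, 3, 1, 0 and 0 counts in WT, and was not tested. Of 12 receptors and partners, 5 were tested and none passed. Ppargc1a, a coactivator of mitochondrial genes, had a log2 fold change of 0.46 ± 0.50, and Ncor1, a corepressor, of -0.28 ± 0.28.

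Gm28438 (ENSMUSG00000101939) is annotated as an unprocessed pseudogene on mm10 chromosome 1, 24612775 to 24613119, on the minus strand. It is a nuclear copy of mt-Nd3, the mitochondrial gene for a subunit of respiratory complex I, which lies on chromosome M, 9459 to 9806, on the plus strand. The first 60 bases of both GENCODE transcripts are shown, 5′ to 3′, because this stretch holds the only base that differs between the aligned transcripts, in capitals. The transcripts matched at 344 of 345 aligned bases, and mt-Nd3 ran 3 bases longer. The difference was T3C, counted from 1 at the 5′ end of the transcript, with the base of mt-Nd3 first. The libraries counted 3′ tags, and whether any tag covered this base was not tested.
Gm28438: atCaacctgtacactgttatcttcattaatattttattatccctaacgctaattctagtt
mt-Nd3: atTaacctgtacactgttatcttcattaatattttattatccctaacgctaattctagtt

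Counts of Gm28438 separated the genotypes in both treatments. Under GW it had 37, 39 and 23 counts in the D libraries, against 0, 0, 2, 0 and 2 counts in the WT libraries. In vehicle it had 38, 16, 41, 14 and 13 counts in D, against 0 in each of the 5 WT libraries. Every D library lay above every WT library in both treatments, as was so for 29 genes under GW (0.592%) and 15 in vehicle (0.306%). Gm28438 rose in D under GW by a log2 fold change of 5.31 ± 0.71 (SE, n = 3 and 5; Benjamini-Hochberg adjusted p = 0.000235 in edgeR). In vehicle its adjusted p in edgeR was 0.000111, and its 122 counts in D against 0 in WT were at least 40.6-fold higher, with 3 counts over the WT group taken as the floor. Within columns 1 to 36 its log2 fold change under GW was 5.62 and within columns 37 to 60 it was 4.72. The edgeR call under GW held when each of the 8 libraries was left out in turn, but DESeq2 gave an adjusted p of 0.999, and within columns 37 to 60 edgeR gave 0.365.

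The near-identity of the pair limits what these counts separate. Salmon, the authors' quantifier, shares reads between similar transcripts by estimation, so a count of Gm28438 is an uncertain part of the pair's total. mt-Nd3 itself had 195, 336 and 123 counts in D under GW, against 180, 140, 177, 106 and 136 in WT. Its log2 fold change was 0.68 ± 0.34 under GW and 0.40 ± 0.30 in vehicle, and neither passed. Gm28438 made up 14.03 ± 3.15% of the pair's counts in D under GW and 0.513 ± 0.713% in WT (SD, n = 3 and 5). In vehicle the share was 9.74 ± 2.60% in D and 0 ± 0% in WT (n = 5 each). These shares describe a gene picked because its groups did not overlap, and carry no test. The pair's summed level, which includes that gene, was 573 ± 204 CPM in D under GW and 326 ± 66.5 CPM in WT, and 491 ± 173 CPM in D in vehicle and 342 ± 93.3 CPM in WT. In the other genotypes Gm28438 was near absent: GW in A had no count, vehicle in A had 2 counts in 1 library, GW in DA had 6 counts in 1 library and vehicle in DA had no count.

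**Figure D1:**
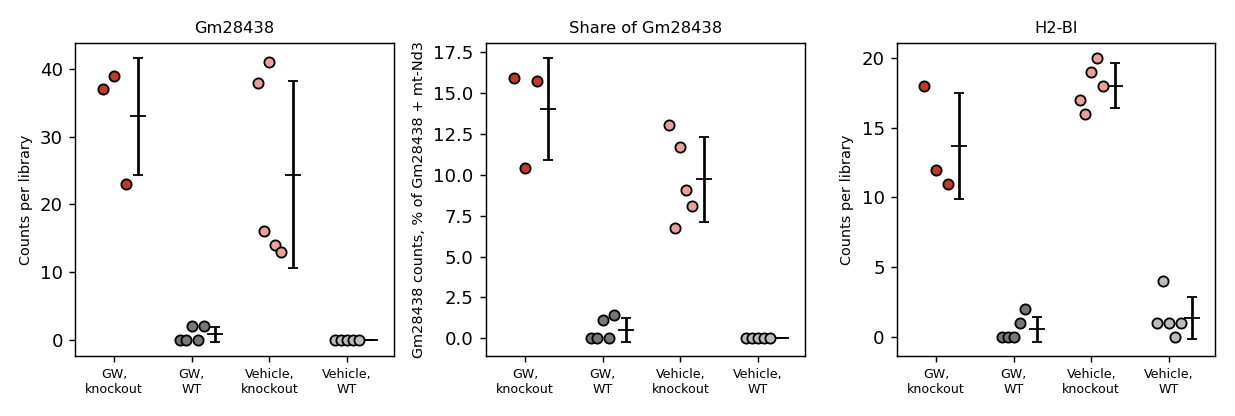
Counts of Gm28438 per library (left), Gm28438 as a percentage of the summed counts of Gm28438 and mt-Nd3 (middle) and counts of H2-Bl per library (right). Each point is a library, and the bars give the mean and SD of each group of 3 (GW, knockout) or 5 libraries; the knockout points stand above all WT points in every panel.

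H2-Bl (ENSMUSG00000073406, mm10 chromosome 17, 36080115 to 36084223) is annotated as a polymorphic pseudogene of the MHC class I family, whose proteins present peptides to T cells. It had 18, 12 and 11 counts in D under GW, against 0, 0, 0, 1 and 2 counts in WT. In vehicle it had 17, 16, 19, 20 and 18 counts in D, against 1, 4, 1, 0 and 1 in WT. The groups did not overlap in either treatment. H2-Bl rose in D by a log2 fold change of 4.41 ± 0.87 under GW (adjusted p = 0.0184) and by 3.59 ± 0.66 in vehicle (adjusted p = 0.00861, edgeR with Benjamini-Hochberg adjustment for both). Within columns 1 to 36 the log2 fold change under GW was 6.99, and within columns 37 to 60 it was 3.13. The pooled counts, 41 in D and 3 in WT under GW, gave a ratio of 24.3 per counted tag, with an exact 95% counting interval of 7.75 to 123. The call was fragile under GW: by edgeR it held when WT replicate 5 was left out (adjusted p = 0.0231) and was lost when any other of the 8 libraries was left out (0.0506 to 0.157). With all libraries, DESeq2 and limma-trend also called H2-Bl. So did edgeR with a block for columns 1 to 36 and 37 to 60 (Benjamini-Hochberg adjusted p = 0.00714).

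H2-Bl was also counted in the other knockouts. Under GW it had 9, 7, 7, 0 and 2 counts in A and 10, 8, 12, 14 and 7 counts in DA. In vehicle it had 13, 12, 10, 0 and 0 counts in A and 22, 9, 12 and 18 counts in DA. In both treatments the 3 A libraries from columns 1 to 36 held 7 to 13 counts, and the 2 from columns 37 to 60 held 0 to 2. The H2-Bl transcript aligned to 30 other annotated genes over at least 500 bases, at up to 93.9% identity with Gm10499 and at 90.3% with the class I gene H2-D1, so its counts may also be shared out among copies. Gm10499 had 3, 8 and 2 counts in D under GW, against 0 in each of the 5 WT libraries, and was too scarce to be tested in the reported fit. In vehicle it had 16 counts in D and 2 in WT. With no filter on low counts it was called under GW (adjusted p = 0.00346, edgeR with Benjamini-Hochberg adjustment). Of 19 antigen presentation genes, 6 were tested and H2-Bl alone passed. H2-T3, a class I gene of the same cluster, had 6.53, 4.28 and 8.46 CPM in D under GW, against 14.1, 24.6, 7.06, 24.7 and 27.6 CPM in WT, a log2 fold change of -1.56 ± 0.67 that did not pass.

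H2-Bl lies 7.78 Mb from Ppard on the same chromosome. Of 117 genes tested within 10 Mb of Ppard, H2-Bl alone passed in either treatment, 60 were higher in D under GW, and the median log2 fold change was 0.00657 under GW and 0.0156 in vehicle. Ppil1, a peptidyl-prolyl isomerase gene of the spliceosome 0.949 Mb from Ppard, had 34.8, 49.2 and 73.3 CPM in D under GW, against 111, 69.4, 89.5, 109 and 90.8 CPM in WT. In vehicle it averaged 51.6 ± 13.997 CPM in D and 84.5 ± 20.2 CPM in WT (SD, n = 5 each). Its log2 fold change was -0.81 ± 0.28 under GW and -0.71 ± 0.23 in vehicle, the groups overlapped by a single pair of values under GW, and it did not pass in either.

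PPARδ targets and fatty acid genes leaned lower in D under GW, and nearly all were within the spread between libraries. Of 13 tested PPAR targets outside oxidation, 12 were lower and 1 higher, 1 passed as lower, and the median log2 fold change was -0.41; over all genes tested 2452 were lower and 2449 higher. In vehicle 12 of the 13 were higher in D, none passed, and the median was 0.23. The mitochondrial fatty acid oxidation list had 13 of 19 genes lower under GW (median -0.12) and 5 of 19 lower in vehicle (median 0.10). The peroxisomal list had 13 of 16 lower under GW (median -0.18) and 8 of 16 in vehicle (median -0.00185). No member of the 2 oxidation lists passed in either treatment.

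Acot1, a cytosolic acyl-CoA thioesterase, had 47.9, 21.4 and 45.1 CPM in D under GW, against 44.4, 82.8, 37.7, 101 and 59.2 CPM in WT. In vehicle it had 21.5, 11.3, 24.2, 13.6 and 15.5 CPM in D, against 13.5, 5.67, 3.96, 6.49 and 15.2 CPM in WT. D was therefore the lower genotype on average under GW and the higher one in vehicle, with overlap in both. The log2 fold changes were -0.72 ± 0.33 and 0.98 ± 0.40, and their difference, the test of whether the genotype effect depended on the agonist, was -1.70 ± 0.52, which did not pass. Under GW it was -0.62 within columns 1 to 36 and -0.81 within columns 37 to 60.

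Me1, the malic enzyme that supplies NADPH for lipid synthesis, had 26.1, 21.4 and 25.4 CPM in D under GW, against 32.3, 53.7, 35.3, 98.7 and 39.5 CPM in WT. All 3 D libraries lay below all WT libraries, as was so for 71 of the genes tested under GW (1.45%) and 24 in vehicle (0.49%). Its log2 fold change was -1.01 ± 0.42 under GW and 0.23 ± 0.48 in vehicle, and it did not pass. Angptl4, a secreted inhibitor of lipoprotein lipase and a standard PPAR target, had 111, 53.5 and 64.8 CPM in D under GW, against 86.9, 123, 70.6, 98.7 and 96.7 CPM in WT. The highest D library exceeded 4 of the 5 WT libraries. Its log2 fold change was -0.26 ± 0.25 under GW and 0.67 ± 0.27 in vehicle.

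Plin2, which coats lipid droplets, averaged 62.3 ± 23.4 CPM in D under GW and 91.7 ± 26.2 CPM in WT, a log2 fold change of -0.51 ± 0.30, against 0.12 ± 0.30 in vehicle. Abhd6, a monoacylglycerol lipase, had 111, 87.7 and 76.1 CPM in D under GW, against 123, 152, 125, 133 and 105 CPM in WT, and a log2 fold change of -0.41 ± 0.21, against 0.44 ± 0.21 in vehicle. Only the highest D library and the lowest WT library crossed for Abhd6. Reg4, a lectin of secretory cells, averaged 104 ± 36.4 CPM in D under GW and 169.5 ± 40.7 CPM in WT. In vehicle every D library (76.02 to 109.5 CPM) lay above every WT library (35.7 to 66.4 CPM). The Reg4 log2 fold changes were -0.62 ± 0.33 under GW and 0.91 ± 0.31 in vehicle, with a difference of -1.54 ± 0.46 that did not pass. Creb3l3, a membrane-bound transcription factor of lipid metabolism, had a log2 fold change of -0.13 ± 0.32 under GW. Pdk4, the kinase that restrains pyruvate entry into the citric acid cycle, was too scarce to be tested, with 0, 0 and 2 counts in D under GW and 2, 1, 2, 4 and 0 in WT.

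**Figure D2:**
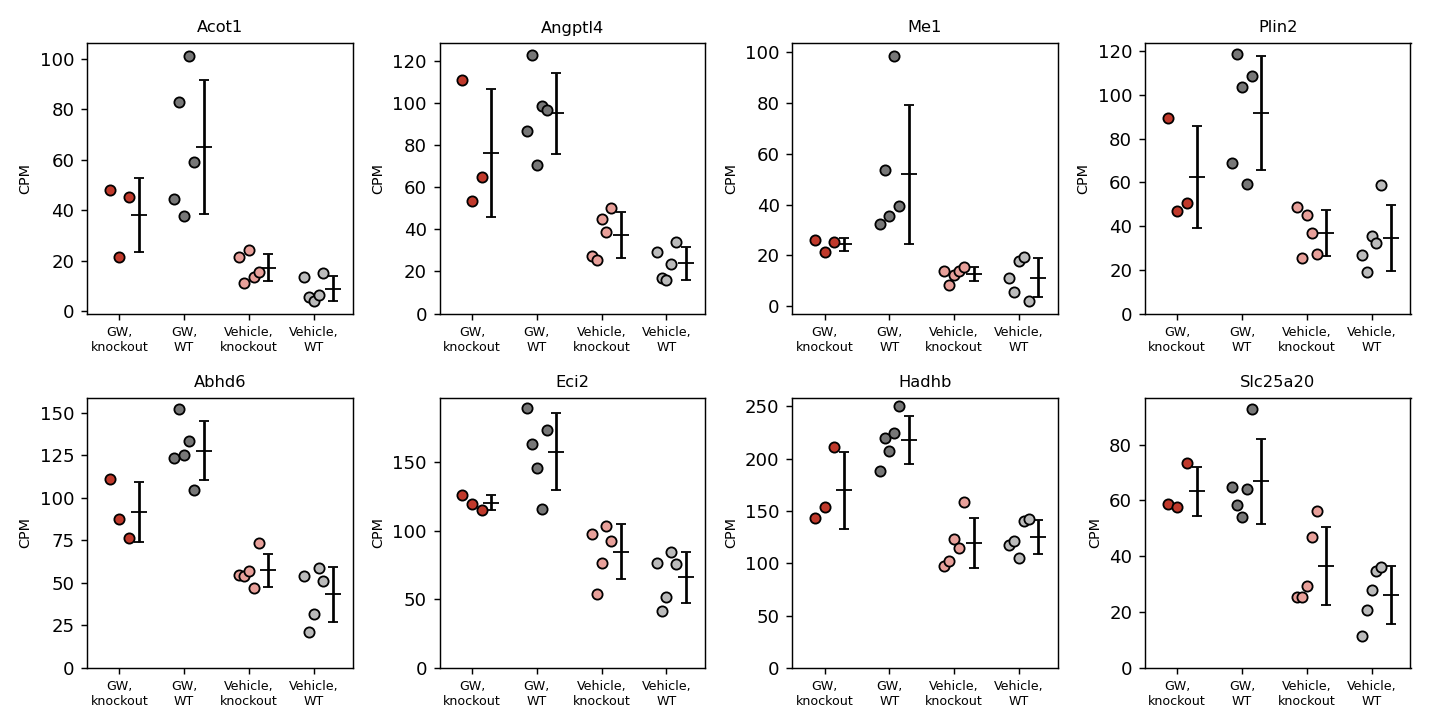
Levels in CPM of 8 genes of fatty acid metabolism in each library, with group means and SD (n = 3 for GW knockout, n = 5 for the other groups). Under GW the knockout means lie below the WT means for all 8 genes, while in vehicle those of all but Hadhb lie above, and the points of most genes overlap.

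Among oxidation genes, Hadhb, the beta subunit of the mitochondrial trifunctional protein, had 144, 154 and 211 CPM in D under GW, against 188, 219, 207, 225 and 251 CPM in WT. It had a log2 fold change of -0.33 ± 0.15 under GW and -0.06 ± 0.14 in vehicle. Eci2, an enoyl-CoA isomerase, had 126, 120 and 116 CPM in D under GW, against 190, 163, 146, 116 and 174 CPM in WT. The Eci2 log2 fold change was -0.34 ± 0.19 under GW and 0.39 ± 0.18 in vehicle. The other mitochondrial genes named had log2 fold changes under GW closer to 0 or with wider errors. Hadha, the partner of Hadhb, had -0.31 ± 0.21, Cpt1a, the carnitine transferase that admits fatty acids to mitochondria, -0.41 ± 0.32, Acadl and Acadvl, the long-chain and very-long-chain acyl-CoA dehydrogenases, -0.28 ± 0.25 and -0.20 ± 0.24, Slc25a20, the carnitine carrier, -0.04 ± 0.29, and Acaa2, the thiolase, -0.02 ± 0.19. Eci1, a further isomerase, went the other way, at 0.41 ± 0.24, with 62.0 to 67.6 CPM in D and 35.3 to 60.4 CPM in WT. It was the 1 gene of the mitochondrial list with every D library above every WT library, and 0 had every D library below. Of the peroxisomal genes, Crot, a carnitine octanoyltransferase, had -0.42 ± 0.23, Pxmp4, a membrane protein, -0.54 ± 0.34, and Abcd3, an acyl-CoA transporter, -0.22 ± 0.21. Fabp1, the fatty acid binding protein and among the most abundant transcripts, had 45499, 38365 and 21443 CPM in D under GW and a WT range of 26250 to 59402 CPM. Its log2 fold change was -0.07 ± 0.33.

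A set of agonist-responsive genes was taken from libraries outside the comparison, as the 14 genes that rose with GW over vehicle in A (0.286% of genes tested). All 14 were lower in D under GW, against 2452 of all 4902 genes, with a median log2 fold change of -0.34. The 95% interval lay below 0 for 4 of them, Acot1, Akr1b8 and Hadhb included, and 1 passed. Akr1b8, an aldo-keto reductase, had 305, 301 and 488 CPM in D under GW, against 404, 457, 607, 553 and 511 CPM in WT, a log2 fold change of -0.45 ± 0.19. In vehicle, in other libraries, 12 of the 14 were higher in D, the median was 0.35, the interval lay above 0 for 4 and none passed. The difference between the treatments was below 0 for all 14 with a median of -0.59, and its interval lay below 0 for 7. No gene of the 4902 passed for the difference by edgeR (158 at an unadjusted p under 0.05, lowest Benjamini-Hochberg adjusted p 0.54), nor by DESeq2 (114 unadjusted), and 1 passed by limma-trend. In the same edgeR fit GW over vehicle called no gene in D (159 unadjusted, lowest adjusted p 0.243) and 20 in WT, all higher (0.408%). D had 3 GW libraries and WT 5, and the median standard error was 0.315 in D and 0.267 in WT. In D, Acot1, Hadha, Hadhb, Eci2, Acadl, Acaa2, Slc25a20, Crot, Pxmp4 and Fabp1 of the set also had higher means under GW than in vehicle. The remaining members of the set are not compared in this way here. Acaa2 had 360 against 311 CPM and Slc25a20 63.3 against 36.6 CPM. Of the 13 genes of the set that are named, 10 were lower in D under GW within columns 1 to 36 and 13 within columns 37 to 60, against 1 and 4 in vehicle. The genes share their libraries and are not independent of each other.

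**Figure D3:**
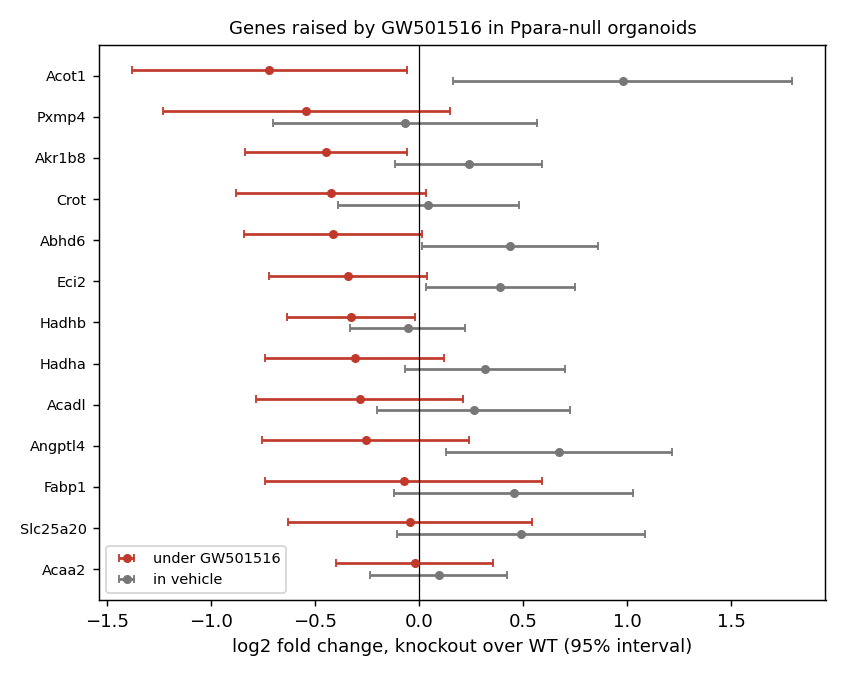
log2 fold change of D over WT with 95% intervals for 13 of the 14 genes that rose with GW in Ppara-null organoids, under GW (red, upper) and in vehicle (grey, lower). The red points all lie below 0, from -0.72 for Acot1 to -0.02 for Acaa2, and 11 of the 13 grey points lie above 0.

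Promoters of the set could be read for 11 of the 14 genes (12 promoters) in the RefSeq table, which holds 250 bases before and 50 after each gene start. The half-site AGGTCA of nuclear receptors, searched on both strands, occurred in 1 of the 12 (8.33%) and in 16.3% of all 32851 promoters. An exact repeat of the half-site after 1 spacer base occurred in 0 of the 12 and in 13 of all promoters (0.0396%). At so low a share its absence from 12 promoters says nothing about them. Inexact repeats were not searched. The promoter with matches was that of Fabp1, shown with both matches in capitals because it is the abundant binding protein described above. It lies at GRCm38.p6 chromosome 6, chr6:71199629-71199928, on the plus strand.
Fabp1: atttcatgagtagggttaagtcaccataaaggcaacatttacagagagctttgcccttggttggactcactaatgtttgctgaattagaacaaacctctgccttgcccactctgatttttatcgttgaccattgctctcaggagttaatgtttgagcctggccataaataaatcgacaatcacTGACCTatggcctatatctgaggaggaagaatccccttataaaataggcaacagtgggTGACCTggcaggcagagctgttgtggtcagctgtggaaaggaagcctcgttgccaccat

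Other metabolic lists had medians near 0. Nuclear oxidative phosphorylation genes were higher in D for 58 of 72 under GW (median 0.11) and for 37 of 72 in vehicle (median 0.00483), and no member passed or reached an unadjusted p under 0.05. Ndufv2, a complex I subunit, had the smallest p of this list and a log2 fold change of 0.25 ± 0.12. Ribosomal protein genes were higher for 54 of 63 (median 0.09) under GW and 53 of 63 (median 0.04) in vehicle, mitochondrially encoded genes for 10 of 15 (median 0.0106), and citric acid cycle genes for 11 of 22 (median 0.00634). Fatty acid synthesis had 3 of 9 higher (median -0.11), with Fads1, a desaturase, at -0.73 ± 0.46. Cholesterol synthesis had 11 of 24 higher (median -0.04), with Lss, lanosterol synthase, at -0.54 ± 0.25. Glycolysis had 5 of 13 higher (median -0.02), fatty acid uptake and binding 2 of 5 (median -0.02), lipid droplets and triglyceride turnover 3 of 9 (median -0.05) and chylomicron genes 4 of 7 (median 0.06). None of these members passed.

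No marker of the epithelial lineages passed under GW. In bulk libraries fewer cells of a type and less RNA per cell cannot be told apart. Stem cell markers were higher for 4 of 9 (median -0.08), and Olfm4, a crypt base marker, had 60.95, 36.4 and 59.2 CPM in D, against 66.6, 53.7, 42.4, 83.9 and 57.2 CPM in WT. Lgr5, the Wnt-driven stem cell receptor, was too scarce to be tested, at 6, 1 and 2 counts in D and 0, 1, 0, 0 and 0 in WT. Proliferation genes were higher for 11 of 25 (median -0.00913). Top2a, the mitotic topoisomerase, had a log2 fold change of -0.46 ± 0.20 under GW and 0.20 ± 0.17 in vehicle. Mcm7, a replication helicase subunit, had -0.56 ± 0.28 and 0.67 ± 0.23.

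Summed marker levels overlapped between the genotypes in each lineage. Under GW the enterocyte sum was 16891 to 21635 CPM in D and 12301 to 19841 CPM in WT, and in vehicle 16343 to 19148 CPM in D and 17142 to 19349 CPM in WT. Most of it was Gsta1, a glutathione transferase, at 12619 ± 2473 CPM in D and 10948 ± 2457 CPM in WT under GW. The Paneth sum under GW was 12686 to 14975 CPM in D and 11428 to 16260 CPM in WT, the goblet sum 4408 to 5489.5 CPM and 4180.5 to 5486 CPM, and the stem cell sum 329 to 457 CPM and 283 to 597 CPM. Enterocyte markers were higher for 13 of 19 (median 0.08) under GW and for 7 of 19 (median -0.06) in vehicle, with Prap1, a secreted protein of absorptive cells, at 0.34 ± 0.19 and Alpi, intestinal alkaline phosphatase, at 0.41 ± 0.26 under GW. Paneth markers were higher for 10 of 17 (median 0.05) and goblet markers for 6 of 8 (median 0.14), with Gcnt3, a mucin glycosyltransferase, at -0.68 ± 0.46. Enteroendocrine markers were higher for 7 of 8 (median 0.31), which became 0.08 without D replicate 2 and 0.17 without WT replicate 1. Gip, an incretin hormone, had 0.46 ± 0.30, and Reg4, described above, was the 1 lower member, at -0.62. The enteroendocrine sum under GW was 307 to 438 CPM in D and 323 to 452 CPM in WT, so it was not higher in D. The regenerative list was higher for 12 of 16 under GW (median 0.10) and 3 of 16 in vehicle (median -0.09), with Cd44, a hyaluronan receptor, at 0.81 ± 0.42 under GW. Unlike most of the list, Cd44 was also higher on average in D in vehicle, at 22.9 CPM against 15.6 CPM in WT. Xenobiotic metabolism was higher for 22 of 28 under GW (median 0.15) and 6 of 28 in vehicle (median -0.06), and Cyp3a25, a cytochrome P450, had 0.64 ± 0.26. Txnrd1, thioredoxin reductase, had -0.53 ± 0.21 in an oxidative stress list with 14 of 19 higher. The integrated stress response list had 3 of 7 higher (median -0.17), the unfolded protein response list 6 of 12 (median 0.00225), the hypoxia list 5 of 6 (median 0.117) and the interferon list 2 of 4 (median 0.06). None of these members passed.

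**Figure D4:**
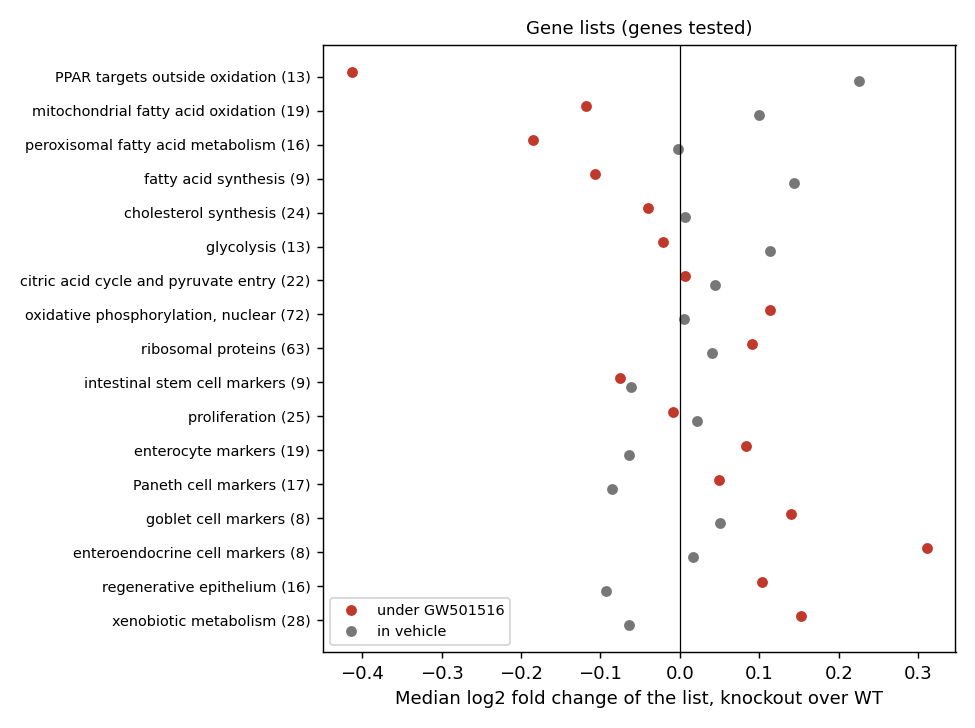
Median log2 fold change of D over WT for 17 gene lists, with the number of genes tested in brackets, under GW (red) and in vehicle (grey). The PPAR target list has the lowest median under GW (-0.41) and lies at 0.23 in vehicle. The lists of respiration, ribosome and most cell types lie within 0.15 of 0 under GW, enteroendocrine markers (0.31) excepted. Peroxisomal fatty acid metabolism (-0.185) and xenobiotic metabolism (0.152) also lie beyond 0.15 under GW.

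Further genes were named for having the smallest p among those at a mean log2 CPM of 4 or more, and none of them passed. Ttr, the thyroxine and retinol transport protein, had 43.5, 19.2 and 42.3 CPM in D under GW, against 12.1, 15.7, 23.5, 9.87 and 3.95 CPM in WT, a log2 fold change of 1.46 ± 0.41, against -0.26 ± 0.35 in vehicle. The lowest D library lay below the highest WT library. Pigyl, a subunit of GPI anchor synthesis, had 1.03 ± 0.31, Fer, a tyrosine kinase, 0.96 ± 0.36, Slc13a1, a sulfate transporter, 0.82 ± 0.30, and Haus8, a spindle protein, 0.80 ± 0.28, each with every D library above every WT library. The remaining genes on the higher side, Mrps5, Sec11c, Erp29, Lcmt1, Golga7, Clec2h and Dusp11, had log2 fold changes of 0.55 to 0.90 and overlapped.

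On the lower side, Gabpb2, a subunit of the GABP transcription factor that serves many mitochondrial genes, had 6, 0 and 2 counts in D under GW, against 10, 8, 9, 11 and 9 in WT. Its log2 fold change was -1.63 ± 0.43, against -0.04 ± 0.29 in vehicle, and it passed by limma-trend (Benjamini-Hochberg adjusted p = 0.0217) and not by edgeR (adjusted p = 0.744). Gpat4, which makes the first intermediate of glycerolipids, had 6, 2 and 5 counts in D, against 12, 11, 10, 14 and 13 in WT, a log2 fold change of -1.30 ± 0.39. Opa1, the GTPase that fuses inner mitochondrial membranes, had 2, 3 and 4 counts in D, against 15, 7, 5, 12 and 8 in WT, a log2 fold change of -1.45 ± 0.46. In all of these every D library lay below every WT library. The same held for Nus1, Dlg1, Atl3, Tug1, Taf7, Coprs and Snx7, with log2 fold changes of -1.61 to -0.97, and in vehicle these 7 genes ran from -0.57 to 0.50.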

How the data were processed

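The deposited table holds raw counts by gene identifier. The submitters' processing notes name edgeR 3.26.8, R 3.6.2, the build mm10 and Salmon 1.1.0; annotation release, handling of molecular identifiers and filters are not given in the sources used here. Column names gave the group (treatment, then genotype), and 20 of 57 columns were not used (19 with the letters KD and 1 named for GW in D with a suffix 2). Replicates are numbered in column order and pair nothing. Symbols and positions came from GENCODE vM21.

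All 37 assigned columns, in 8 groups, entered a single fit with edgeR 4.0.16 under R 4.3.3 (filterByExpr by group, TMM, glmQLFit, glmQLFTest), with Benjamini-Hochberg adjustment over the 4902 genes tested; a gene passed at 0.05. CPM are counts per 1e+06 counts of the library, unscaled by TMM, and 3′ tags need no length correction. Standard errors of log2 fold changes come from this fit. DESeq2 1.42.0 and limma 3.58.1 were alternatives, and transcripts were aligned with blastn 2.17.0. The test was also run on simulated counts, whose outcome is not given here and is not used as support. Libraries of 353347 to 577557 counts limit the precision for scarce genes; floors (3 counts over a group) and counting intervals cover counting error only. The labels name no separate animals or cultures, so the p-values reflect library-to-library spread, part of which may be technical; each compared group held libraries with Xist above the Y-linked transcripts and libraries with the reverse, so no group was a single animal. No 2 libraries of a compared GW group were copies: their counts differed by more than sampling noise, at a chi-square of 2.87 to 5.30 for each degree of freedom.

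The comparison, members, lists and tests were chosen with earlier results of these data known. The genes named included the 4 receptors. Up to 12 per direction had the smallest p at a mean log2 CPM of at least 4 (predicted genes and pseudogenes left out). Up to 4 per list were named, and a set of PPAR and marker genes whatever their p. Gm28438 and H2-Bl are named because they passed. H2-D1, Gsta1, Gm10499, Pecam1, Dynlt1b and Psme2b were chosen after their values were seen. Some genes, 1 of those that passed included, are counted in the totals and are not reported here.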

Additional observations from a re-analysis of the deposited data

Results flagged for a closer look

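In groups of 4 or 5 libraries, 12 of the 213 gene and group combinations tested (5.63%) held a library set apart from the rest by Dixon's criterion. Chance alone flags about 1 in 20 of independent, normally distributed sets. These combinations share libraries and include genes with counts near 0, so that rate is only nominal here. Under GW in WT, the highest library stood apart for Gpat4 (34.5 CPM, next 25.7), Slc25a20 (92.8 CPM, next 64.6), Cd44 (32.1 CPM, next 17.8) and Lgr5 (2.24 CPM, the others 0), and the lowest for Hadha (122 CPM, next 237) and Acadvl (40.03 CPM, next 72.7). In vehicle in D, the highest library stood apart for Opa1 (21.5 CPM, next 11.7), Tug1 (30.9 CPM, next 13.7) and Pdk4 (5.66 CPM, the others 0), and the lowest for Ndufv2 (368 CPM, next 503). In vehicle in WT, the highest stood apart for Top2a (138 CPM, next 119) and Lgr5 (5.67 CPM, the others 0). The 3 D libraries under GW were too few to be tested this way.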

How the results depend on the processing

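Under GW, 2 genes rose and 1 fell in D in the reported fit. With no filter on low counts 8 rose and 9 fell, 3 of these 17 being the reported ones, and vehicle had 18 calls and the difference 12. DESeq2 called 1 higher, limma-trend 2 lower and 1 for the difference, and a fit of only the groups compared 2 lower under GW and 4 in vehicle. Within columns 1 to 36 there were 0 lower and 4 in vehicle, within columns 37 to 60 there were 1 higher (not a reported gene), 0 lower and 0 in vehicle, and without the suffix 2 columns 1 higher. Leaving out each library gave 1 to 2 higher, 0 to 1 lower (0 without D replicate 2) and 1 to 2 in vehicle (1 without vehicle WT replicate 3, 4 or 5). RLE and upper quartile scaling changed none of the counts of calls. Small fold changes turned sign: with a block for the column numbers Ppara had 0.0524, Pparg -0.0175, Slc25a20 0.00465 and Acaa2 0.00753; within columns 1 to 36 Ppara had 0.70, Slc25a20 0.0342, Acaa2 0.0422, and Fabp1 0.12; within columns 37 to 60 Pparg had -0.0414; and without the suffix 2 columns Ppara had 0.10. Dynlt1b had no count in D or WT in columns 1 to 36, so its fold change there is 0. Leaving out each library in turn gave ranges of -0.90 to 0.42 for Ppara, -0.08 to 0.10 for Pparg, -0.0928 to 0.101 for Slc25a20, -0.0666 to 0.0531 for Acaa2, -0.30 to 0.22 for Fabp1, -0.49 to 0.15 for Creb3l3 and -0.39 to 0.00427 for Ncor1. List medians ran from -0.21 to 0.22 for fatty acid uptake, -0.584 to 0.0453 for lipid droplets, 0.0793 to 0.405 for enteroendocrine markers and -5.57 to -0.26 for sex-linked genes. The cause was not tested for any of these. No paired analysis was possible because the columns carry no replicate number.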

Other observations

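Counts of 2 transcripts with close copies elsewhere in the genome lay at 0 in some libraries and well above 0 in others of the same group. Dynlt1b, a dynein light chain gene with close relatives, had no count in the 3 D libraries under GW, against 0, 0, 0, 25 and 34 counts in WT. In vehicle it had 11, 6, 0, 16 and 0 counts in D, against 0, 0, 32, 55 and 0 in WT. Psme2b, a copy of a proteasome activator subunit gene, had 22, 0 and 0 counts in D under GW, against 48, 54, 59, 0 and 41 in WT, and in vehicle 52, 32, 53, 68 and 18 counts in D, against 59, 60, 0, 26 and 0 in WT. Both were among the genes called when no filter on low counts was applied (adjusted p = 2.97e-08 for Dynlt1b and 8.12e-10 for Psme2b, edgeR with Benjamini-Hochberg adjustment) and neither passed in the reported fit.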
